A study of Mus musculus with 7 samples.

Results

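A set of 10 genes of type 1 (Th1) immunity was followed by RNA-seq in CD4+CD25+ cells that had been sorted by flow cytometry from mouse liver. Its members, listed by name, were the factors Tbx21, Eomes and Stat4, the receptor chains Il12rb2, Il18r1 and Il18rap, the cytokine Ifng and the chemokines Xcl1, Ccl4 and Ccl5. All 10 were found among the 53465 Ensembl gene IDs of the count table by their mouse symbols, and all 10 passed the filter on low counts that left 14784 genes for testing. CD73-MCD stands for 3 libraries from CD73 KO mice fed a diet lacking methionine and choline. MCD stands for 2 libraries from wild type C57BL/6 mice on that same diet, a common way to bring about steatohepatitis in mice. NCD stands for 2 libraries from wild type C57BL/6 mice that received the normal control diet. Feeding lasted 4 weeks in every group. The labels do not say which part of the CD73 gene was deleted, how old the mice were or how many mice went into a library, and knockout mice on the control diet are not analysed here. It is not stated that replicates are separate animals, so p-values refer to library-to-library spread that may be technical.

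Th1 cells are the T helper cells that make interferon gamma against intracellular microbes. Interleukin 12 acts through STAT4 and the T-box factor T-bet (Tbx21) to switch on the interferon gamma gene Ifng and the receptors for interleukins 12 and 18, and interleukin 18 then adds to interferon gamma output. Natural killer cells, group 1 innate lymphoid cells and CD8 T cells use the same programme, often with the related factor Eomes, so these genes are shared by several lymphocytes of the liver. Some regulatory T cells (Treg) also express T-bet and the chemokine receptor CXCR3 in type 1 inflammation. The gate on CD4 and CD25, the surface phenotype of Treg, takes in activated helper T cells as well.

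The libraries held 19731501 to 24398738 counted reads. Nt5e, the gene of CD73, had 5.88, 14.5 and 6.43 CPM in CD73-MCD, 177 and 87.6 CPM in MCD, and 243 and 241 CPM in NCD, which follows the genotype labels and does not bear on the diet labels. Levels are in CPM, the usual depth-scaled read counts, computed on the effective library size. Cd4 and Il2ra, the gene of CD25, were counted in every library. Il2ra ranged from 193 CPM in MCD replicate 2 to 791 CPM in MCD replicate 1. The 12 pan T cell markers, which include Cd4 but not Il2ra, summed to 8058 to 9684 CPM in CD73-MCD. Their sum was 6628 to 13274 CPM in MCD and 11774 to 16994 CPM in NCD. The 9 Treg markers, which include Foxp3 and Il2ra, summed to 2592 to 3091 CPM in CD73-MCD. They summed to 2217 to 4085 CPM in MCD and 2958 to 3738.5 CPM in NCD, and 4 were higher and 5 lower in MCD than in NCD. Foxp3 had 192, 167 and 218 CPM in CD73-MCD, 141 and 108 CPM in MCD, and 181 and 286.5 CPM in NCD. The 12 macrophage and Kupffer cell markers summed to 7384 to 12666 CPM in CD73-MCD, 2415 to 32716 CPM in MCD and 1201.5 to 11146 CPM in NCD, and none was at 0 in a group. MCD replicate 2 and NCD replicate 1 were the libraries with most macrophage RNA in their groups. The 17 markers of natural killer, group 1 innate, CD8 and gamma delta T cells summed to 732.5 to 814 CPM in CD73-MCD, 844 to 983 CPM in MCD and 316 to 744.5 CPM in NCD, where Ncr1, Klre1 and Klra8 were not counted. In bulk libraries such as these a lower level of a gene through fewer cells of a type cannot be told apart from less of its RNA per cell.

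No Th1 gene passed an adjusted p of 0.05 in any comparison. Il18rap and Ccl5, and Xcl1 at low counts, were higher in every library of the deficient diet, with or without CD73, than in both control diet libraries. Ifng, and Xcl1 at low counts, were higher in the 3 knockout libraries than in all 4 wild type libraries. Of all tested genes, 16.8% had MCD wholly above NCD, 13.4% had CD73-MCD wholly above NCD and 8.37% had CD73-MCD wholly above MCD. The share with all 5 deficient diet libraries, or all 3 knockout libraries, above the rest was not counted. Tbx21, Stat4 and Il18r1 were well counted in all libraries and their groups overlapped in every comparison. Eomes and Xcl1 were low, at no more than 3.58 CPM and 5.44 CPM, and most of their reads came from CD73-MCD replicate 2.

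**Figure D1:**
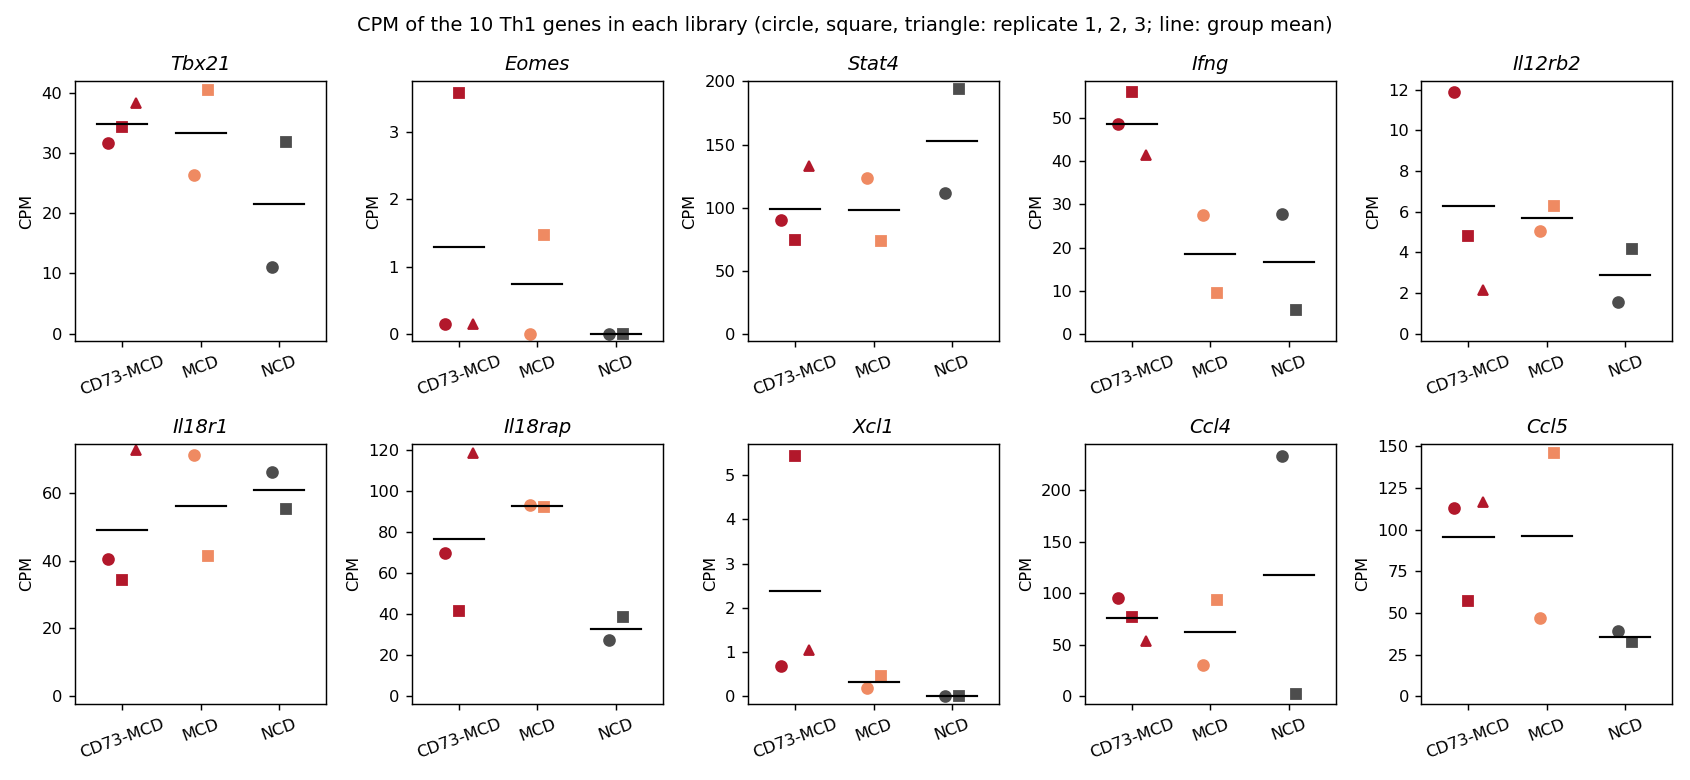
CPM (vertical axes, linear, a scale for each gene) of the 10 Th1 genes in CD73-MCD, MCD and NCD libraries; each symbol is a library (circle, square and triangle for replicates 1, 2 and 3) and the line is the group mean. The 3 CD73-MCD values of Ifng (41.5 to 56.1 CPM) lie above the 4 wild type values, both NCD values of Il18rap and Ccl5 lie below the 5 others, and Ccl4 spans 2.23 to 234 CPM within NCD.

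Of the transcription factors, Tbx21 encodes T-bet, the lineage factor of Th1 cells. Tbx21 (ENSMUSG00000001444, chromosome 11, 97098071 to 97115331, GRCm38) had 31.7, 34.3 and 38.4 CPM in CD73-MCD, 26.3 and 40.5 CPM in MCD, and 11.1 and 31.9 CPM in NCD. Only NCD replicate 1 stood apart, at the low end, and the other 6 libraries lay between 26.3 and 40.5 CPM. For Tbx21 the fitted log2 difference came to 0.06 (SE 0.51, edgeR adjusted p = 1.0) in CD73-MCD against MCD and 0.63 (SE 0.56, edgeR adjusted p = 0.922) in MCD against NCD. The 2 SE interval of the first, -0.96 to 1.08, allows a difference of about a doubling either way. Without NCD replicate 1 the diet difference of Tbx21 was 0.07, and without NCD replicate 2 it was 1.59.

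Stat4 encodes the signal transducer that interleukin 12 activates. Stat4 (ENSMUSG00000062939, chromosome 1, 51987148 to 52107189) had 90.1, 74.5 and 133 CPM in CD73-MCD, 124 and 73.1 CPM in MCD, and 111 and 194 CPM in NCD. The groups overlapped, with NCD replicate 2 the highest library. For Stat4 it was 0.01 on the log2 scale (SE 0.41, edgeR adjusted p = 1.0) in CD73-MCD against MCD and -0.63 (SE 0.45, edgeR adjusted p = 0.847) in MCD against NCD. Per 1000 reads of the 12 pan T cell markers, Stat4 had 8.17 to 13.7 reads in CD73-MCD, 9.32 and 11 in MCD, and 9.45 and 11.4 in NCD, and the groups overlapped on that scale too.

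Eomes encodes eomesodermin, the T-box factor of natural killer cells and memory CD8 T cells. Eomes (ENSMUSG00000032446, chromosome 9, 118478212 to 118486132) had 3, 79 and 3 reads in CD73-MCD, 0 and 28 reads in MCD, and 0 reads in both NCD libraries. These reads are 0.146, 3.58 and 0.143 CPM in CD73-MCD, and 0.0 and 1.47 CPM in MCD. A count of 0 in an NCD library allows up to 0.129 or 0.152 CPM (3 counts, counting error only). Set against a floor of 3 counts in the whole NCD group, Eomes was 19.2-fold higher in CD73-MCD and 9.91-fold higher in MCD. Each of these folds rests on 1 library and allows for counting error only, not for the spread between libraries. The 2 SE interval of the log2 fold change was 0.4 to 15.13 in CD73-MCD against NCD and -0.23 to 14.15 in MCD against NCD. With no NCD read, the centre and ends of these intervals depend on the small count that edgeR adds. They therefore set no lower limit on the fold, and the first leaves out 0 although its unadjusted edgeR p was 0.0764. The tests gave edgeR adjusted p = 0.585 for CD73-MCD against NCD and 0.81 for MCD against NCD. Per kilobase of annotated exon, Tbx21 had 4.47 to 16.3 CPM over the 7 libraries and Eomes 0.0 to 0.861 CPM, so T-bet was the more abundant T-box transcript in each.

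Ifng encodes interferon gamma, the defining Th1 cytokine. Ifng (ENSMUSG00000055170, chromosome 10, 118441046 to 118445892) had 48.6, 56.1 and 41.5 CPM in CD73-MCD, 27.5 and 9.56 CPM in MCD, and 27.7 and 5.58 CPM in NCD. The knockout libraries stood above both wild type groups without overlap, and within each wild type group the libraries differed by more than the wild type group means did. The mean was 48.7 ± 7.3 CPM in CD73-MCD (SD, n = 3), 18.5 ± 12.7 CPM in MCD (SD, n = 2) and 16.6 ± 15.6 CPM in NCD (SD, n = 2). In CD73-MCD against MCD the log2 fold change of Ifng was 1.40 (SE 0.75, edgeR adjusted p = 1.0), a 2.63-fold difference that did not pass the test. It was 0.83 without MCD replicate 2 and 2.39 without MCD replicate 1. In CD73-MCD against NCD it was 1.55 (SE 0.76, edgeR adjusted p = 0.586), with 0.82 without NCD replicate 2 and 3.12 without NCD replicate 1. In MCD against NCD it was 0.16 (SE 0.79, edgeR adjusted p = 1.0), and its sign turned to -0.57 without NCD replicate 2 and to -0.82 without MCD replicate 1. The gene had 6.03, 6.16 and 4.29 reads per 1000 pan T cell reads in CD73-MCD, 2.07 and 1.44 in MCD, and 2.35 and 0.329 in NCD, so the knockout libraries also stood above the wild type libraries on the scale of T cell RNA. The natural killer and CD8 T cell markers, which other interferon gamma producers carry, summed lower in CD73-MCD (732.5 to 814 CPM) than in MCD (844 to 983 CPM), with 13 of the 17 markers lower. The CD8 genes on that list did not follow the sum. Cd8a had 27.8, 38.8 and 22.3 CPM in CD73-MCD, against 0.0 and 35.1 CPM in MCD, and Cd8b1 had 47.5, 42.4 and 55.9 CPM in CD73-MCD, against 17.1 and 63.8 CPM in MCD. Against NCD, where the sum was 316 to 744.5 CPM, 16 of the 17 markers were higher in CD73-MCD (median log2 fold change 1.92). The part of natural killer and CD8 T cells in either Ifng difference was not tested. The 7 B and plasma cell markers stood higher in CD73-MCD (332 to 833 CPM summed) than in MCD (308.5 to 432 CPM), with 6 of 7 higher and a median log2 fold change of 1.62, and their part was not tested either.

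The window around the start of Ifng is shown because the knockout libraries of Ifng stood above all wild type libraries. That of Xcl1 is shown because it is the other gene with the knockout libraries on top. The NCD libraries differ from the knockout libraries in diet as well as genotype. Promoter windows of 250 bases before to 50 after the start came from RefSeq (GRCm38.p6) for 8 of the 10 genes, in 11 windows. They were searched on both strands for the T-box core TCACAC (found in 14.5% of the 32851 promoter windows of the genome), the STAT pattern TTCNNNGAA (8.30%) and the AP-1 pattern TGANTCA (7.81%), which share no letters in these windows. The capitals below mark such matches: a STAT pattern at the upstream end of the Ifng window, and a T-box core on the reverse strand in the Xcl1 window. A match is a description of the letters and not a bound site.
Ifng (chr10:118440796-118441095, + strand, GRCm38.p6): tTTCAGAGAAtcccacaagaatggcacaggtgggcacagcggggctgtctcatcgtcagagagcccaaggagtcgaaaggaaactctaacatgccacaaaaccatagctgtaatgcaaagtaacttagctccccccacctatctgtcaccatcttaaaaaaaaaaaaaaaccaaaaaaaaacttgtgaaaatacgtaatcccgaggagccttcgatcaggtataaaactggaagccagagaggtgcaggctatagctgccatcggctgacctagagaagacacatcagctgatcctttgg
Xcl1 (chr1:164935473-164935772, - strand, GRCm38.p6): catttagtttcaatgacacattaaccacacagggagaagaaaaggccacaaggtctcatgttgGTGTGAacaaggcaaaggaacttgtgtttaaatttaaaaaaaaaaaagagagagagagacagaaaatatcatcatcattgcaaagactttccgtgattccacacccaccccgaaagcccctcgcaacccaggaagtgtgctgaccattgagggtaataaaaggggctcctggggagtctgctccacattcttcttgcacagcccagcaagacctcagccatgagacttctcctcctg

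Of the cytokine receptors, Il12rb2 encodes the signalling chain of the interleukin 12 receptor, which T-bet and interferon gamma keep on in Th1 cells. Il12rb2 (ENSMUSG00000018341, chromosome 6, 67291318 to 67376188) was low, with 11.9, 4.80 and 2.14 CPM in CD73-MCD, 5.07 and 6.30 CPM in MCD, and 1.57 and 4.17 CPM in NCD. The knockout libraries held the highest value and overlapped with both wild type groups, and both MCD libraries stood above both NCD libraries. For Il12rb2 the fitted log2 difference came to 0.14 (SE 1.05, edgeR adjusted p = 1.0) in CD73-MCD against MCD and 0.98 (SE 1.16, edgeR adjusted p = 0.982) in MCD against NCD. Il12rb2 shares 1519 bases of exon with Serbp1 on the other strand, a gene with 106073 reads in all, which makes its reads ambiguous if strand was ignored in counting.

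Il18rap and Il18r1 encode the accessory chain and the ligand binding chain of the interleukin 18 receptor, and both are needed for signalling. The genes are neighbours on chromosome 1, Il18r1 (ENSMUSG00000026070) at 40465552 to 40500854 and Il18rap (ENSMUSG00000026068) at 40515362 to 40551705, 14507 bases apart on the same strand. Il18rap had 70.0, 41.4 and 118 CPM in CD73-MCD, 93.3 and 92.4 CPM in MCD, and 27.3 and 38.5 CPM in NCD. All 5 deficient diet libraries stood above both control diet libraries, CD73-MCD replicate 2 by the least. Il18rap averaged 92.9 ± 0.664 CPM in MCD and 32.9 ± 7.89 CPM in NCD (SD, n = 2 each), a 2.82-fold difference (log2 fold change 1.5, SE 0.51, edgeR adjusted p = 0.777). Against NCD, CD73-MCD differed by 1.22 on the log2 scale (SE 0.48, edgeR adjusted p = 0.539). Against MCD it differed by -0.28 (SE 0.45, edgeR adjusted p = 1.0), and by 0.02 without CD73-MCD replicate 2. With any 1 library left out the difference of Il18rap between MCD and NCD stayed between 1.27 and 1.77. That between CD73-MCD and NCD was 0.76 without CD73-MCD replicate 3 and 0.74 with the replicate number as a block.

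Il18r1 had 40.5, 34.4 and 72.5 CPM in CD73-MCD, 71.0 and 41.4 CPM in MCD, and 66.2 and 55.2 CPM in NCD. Its groups overlapped in all 3 comparisons, with log2 fold changes of -0.19 (SE 0.43) in CD73-MCD against MCD, -0.31 (SE 0.43) in CD73-MCD against NCD and -0.11 (SE 0.48) in MCD against NCD, and edgeR adjusted p from 0.921 to 1.0. The ratio of Il18rap reads to Il18r1 reads within a library, which does not depend on the scaling, was 1.73, 1.2 and 1.63 in CD73-MCD, 1.31 and 2.23 in MCD, and 0.41 and 0.7 in NCD. The ratio was higher in all 5 deficient diet libraries than in both control diet libraries. It is a ratio of reads and not of levels, since the annotated exons of Il18rap span 6752 bases and those of Il18r1 4817 bases. Per kilobase, Il18rap stood below Il18r1 in CD73-MCD replicate 2 (6.13 against 7.14 CPM per kilobase), in MCD replicate 1 (13.8 against 14.7) and in both NCD libraries (4.05 against 13.7, and 5.70 against 11.5). This ratio was chosen after its values were seen and is given with no test. Il18rap is also expressed by natural killer and CD8 T cells. Of their 17 markers 16 were higher in MCD than in NCD (median log2 fold change 2.80) and 16 were higher in CD73-MCD than in NCD (median 1.92), and their part in the difference was not tested.

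**Figure D2:**
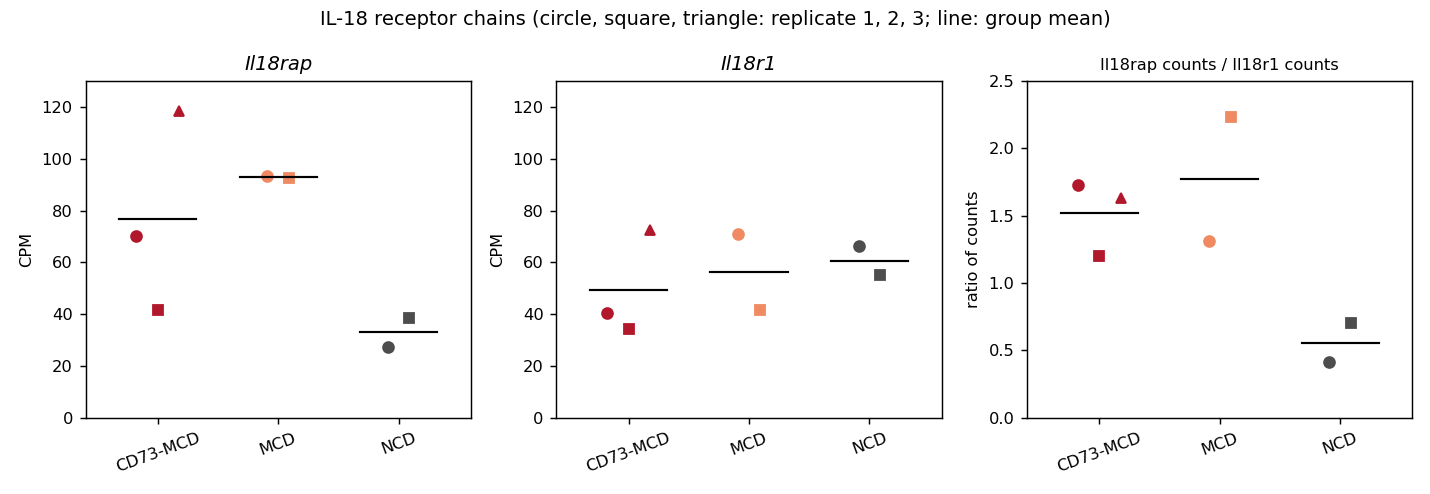
CPM of Il18rap and Il18r1 (left and middle, linear axes of the same range) and the ratio of their read counts (right, linear axis) in CD73-MCD, MCD and NCD libraries; symbols are libraries and lines are group means. The ratio lies between 1.2 and 2.23 in the 5 deficient diet libraries and at 0.41 and 0.7 in the NCD libraries, while Il18r1 overlaps between all groups.

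The start windows of the 2 receptor chains are given because Il18rap had all deficient diet libraries above the control diet libraries while its neighbour Il18r1 did not. Il18rap has 1 RefSeq window and Il18r1 has 3, of which the window shown holds the 2 STAT patterns marked in capitals. The Il18rap window holds none of the 3 patterns, which says only that these letters are not in it.
Il18rap (chr1:40515112-40515411, + strand, GRCm38.p6): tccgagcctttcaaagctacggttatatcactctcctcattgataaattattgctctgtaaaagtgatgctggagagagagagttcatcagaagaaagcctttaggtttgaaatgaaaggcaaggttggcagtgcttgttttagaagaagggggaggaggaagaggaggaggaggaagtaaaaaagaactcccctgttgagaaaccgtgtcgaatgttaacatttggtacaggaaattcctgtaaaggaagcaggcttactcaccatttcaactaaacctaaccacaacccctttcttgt
Il18r1 (chr1:40465756-40466055, + strand, GRCm38.p6): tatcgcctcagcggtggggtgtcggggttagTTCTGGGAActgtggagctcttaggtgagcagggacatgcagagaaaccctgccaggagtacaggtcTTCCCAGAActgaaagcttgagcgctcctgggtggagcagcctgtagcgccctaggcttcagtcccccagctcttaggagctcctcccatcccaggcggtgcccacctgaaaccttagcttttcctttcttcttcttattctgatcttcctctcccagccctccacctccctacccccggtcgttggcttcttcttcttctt

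Ccl5, Ccl4 and Xcl1 are chemokines that activated type 1 lymphocytes secrete. Ccl5 (RANTES) is stored by memory CD8 T cells and natural killer cells and attracts T cells and monocytes. Ccl5 (ENSMUSG00000035042, chromosome 11, 83525778 to 83530518) had 113, 57.3 and 116 CPM in CD73-MCD, 46.9 and 146 CPM in MCD, and 39.2 and 32.4 CPM in NCD. The 5 deficient diet libraries stood above both control diet libraries, MCD replicate 1 by the least. Of the 17 natural killer and CD8 T cell markers, 16 were higher in MCD than in NCD. In CD73-MCD against NCD 16 were higher too, and the part of these cells in the Ccl5 differences was not tested. For Ccl5 the fitted log2 difference came to 1.43 (SE 0.59, edgeR adjusted p = 0.808) in MCD against NCD, a 2.69-fold difference, and 1.42 (SE 0.56, edgeR adjusted p = 0.54) in CD73-MCD against NCD. In MCD against NCD the difference of Ccl5 rested on MCD replicate 2, since it was 0.39 without that library and 2.01 without MCD replicate 1, whereas in CD73-MCD against NCD it stayed between 1.25 and 1.68 with any 1 library left out. In CD73-MCD against MCD it was -0.01 (SE 0.53, edgeR adjusted p = 1.0), and 1.03 without MCD replicate 2.

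Ccl4 (MIP-1beta) is also made in quantity by activated macrophages. Ccl4 (ENSMUSG00000018930, chromosome 11, 83662584 to 83664683) had 96.0, 77.1 and 54.0 CPM in CD73-MCD, 30.9 and 93.3 CPM in MCD, and 234 and 2.23 CPM in NCD. The 2 control diet libraries were the highest and the lowest of all 7, so no comparison with NCD has a stable direction. The log2 fold change of Ccl4 in MCD against NCD was -0.92 (SE 1.46, edgeR adjusted p = 1.0), 4.79 without NCD replicate 1 and -1.90 without NCD replicate 2. In CD73-MCD against NCD it was -0.64 (SE 1.31, edgeR adjusted p = 0.964), 5.08 without NCD replicate 1 and -1.62 without NCD replicate 2. In CD73-MCD against MCD it was 0.29 (SE 1.33, edgeR adjusted p = 1.0), 1.29 without MCD replicate 2 and -0.26 without MCD replicate 1.

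Ccl3, the neighbour of Ccl4 at 13228 bases and a chemokine of the same cells, had 434, 259 and 152 CPM in CD73-MCD, 127 and 340 CPM in MCD, and 669 and 8.63 CPM in NCD. Tnf, an inflammatory cytokine of macrophages and T cells, had 250, 152 and 82.7 CPM in CD73-MCD, 45.6 and 140 CPM in MCD, and 247 and 5.37 CPM in NCD. Ccl3, Tnf and Ccl4 thus ordered the libraries within each group in the same way. The macrophage and Kupffer cell markers summed to 12666, 9546 and 7384 CPM in CD73-MCD, 2415 and 32716 CPM in MCD, and 11146 and 1201.5 CPM in NCD. Within each of the 3 groups the library with more of these markers also had more Ccl4, and their part in the spread of Ccl4 was not tested.

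**Figure D3:**
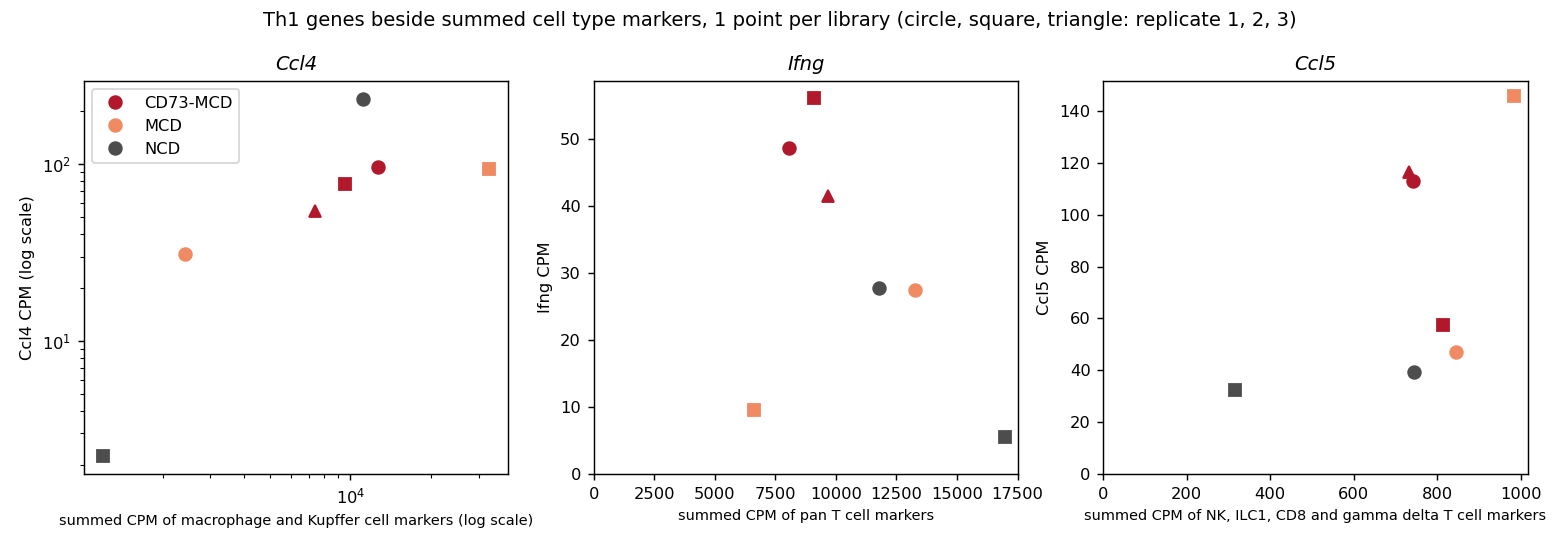
CPM of Ccl4, Ifng and Ccl5 (vertical axes) against the summed CPM of macrophage, pan T cell and natural killer or CD8 T cell markers (horizontal axes; both axes of the Ccl4 panel are logarithmic), with 1 point per CD73-MCD, MCD or NCD library. Ccl4 is lowest (2.23 CPM) in the NCD library with 1201.5 CPM of macrophage markers, and the 3 CD73-MCD libraries with 41.5 to 56.1 CPM of Ifng lie between 8058 and 9684 CPM of pan T cell markers.

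Xcl1 (lymphotactin) attracts cross-presenting dendritic cells through XCR1 and is made by natural killer and CD8 T cells. Xcl1 (ENSMUSG00000026573, chromosome 1, 164931644 to 164935527) had 14, 120 and 22 reads in CD73-MCD, 4 and 9 reads in MCD, and 0 reads in both NCD libraries. These are 0.680, 5.44 and 1.05 CPM in CD73-MCD and 0.186 and 0.473 CPM in MCD. The groups did not overlap in any comparison, at levels where MCD replicate 1 lay barely above the 0.139 CPM that 3 counts give there. With the same floor of 3 counts for the NCD group, Xcl1 was 35.2-fold higher in CD73-MCD (edgeR adjusted p = 0.463). It was 4.60-fold higher in MCD (edgeR adjusted p = 0.808). These folds allow for counting error only. The 2 SE intervals of the log2 fold change against NCD were 3.48 to 13.83 for CD73-MCD and 1.2 to 10.43 for MCD. As for Eomes, they depend on the small count that edgeR adds and set no lower limit on the fold. DESeq2 called Xcl1 in CD73-MCD against NCD (DESeq2 adjusted p = 0.0332), the only call of a Th1 gene under any alternative. The log2 fold change in CD73-MCD against MCD was 2.84 (SE 1.93, edgeR adjusted p = 1.0), and 1.38 without CD73-MCD replicate 2. That library held 120 of the 156 Xcl1 reads and 79 of the 85 Eomes reads of its group. Its natural killer, CD8 and gamma delta T cell markers summed to 814 CPM, against 743 and 732.5 CPM in the other knockout libraries. Single markers did not all follow that sum. Among the knockout libraries Cd8a was highest there (38.8 CPM), and Klrb1c (15.2 CPM) and Cd8b1 (42.4 CPM) were lowest. Ncr1 (5.75 CPM) and Klrd1 (23.9 CPM) lay between the others. The part of these cells in the Xcl1 and Eomes reads was not tested.

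Per kilobase of annotated exon, the scale on which different genes can be compared, the chemokines Ccl4 and Ccl5 led in CD73-MCD and MCD. In CD73-MCD the mean levels were 115 ± 31.9 for Ccl4, 99.6 ± 34.6 for Ccl5, 37.6 ± 5.63 for Ifng, 25.6 ± 7.83 for Stat4, 14.0 ± 1.37 for Tbx21, 11.3 ± 5.77 for Il18rap and 10.2 ± 4.25 for Il18r1, all in CPM per kilobase (SD, n = 3). Xcl1, Il12rb2 and Eomes followed with 4.57 ± 5.06, 1.65 ± 1.32 and 0.310 ± 0.477 CPM per kilobase. Of the 9 pairs of neighbours in this order, Ccl5 and Ifng, Ifng and Stat4, Stat4 and Tbx21, Il18r1 and Xcl1, and Il12rb2 and Eomes differed by more than the larger of their SDs, and the other pairs did not. By these means Ifng stood above Stat4 in CD73-MCD. In CD73-MCD replicate 3, however, Ifng was below Stat4 (32.1 against 34.4 CPM per kilobase). The mean of Ifng was below that of Stat4 in MCD, at 14.3 ± 9.78 CPM per kilobase, and in NCD, at 12.8 ± 12.1 (SD, n = 2 each). Stat4 had 25.4 ± 9.23 CPM per kilobase in MCD and 39.5 ± 15.2 in NCD.

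Set beside all genes, none of the 10 Th1 genes passed the edgeR test in any comparison, as no gene did (0.0% of 14784). In MCD against NCD 3 of the 10 had an unadjusted edgeR p under 0.05 and were higher (Il18rap, Xcl1 and Ccl5), where 3.96% of all tested genes were, and 4 of 10 had MCD libraries all above the NCD libraries, where 16.8% of all genes did. Of the 10, 7 had a positive log2 fold change (52.3% of all genes did), and the median was 0.81, against 0.04 over all genes. In CD73-MCD against NCD the same 3 genes had an unadjusted edgeR p under 0.05 (4.72% of all genes were higher at that p), and 5 of 10 had all knockout libraries above NCD (13.4% of all genes). Again 7 were positive (52.8% of all genes), with a median of 1.17, against 0.06 over all genes. In CD73-MCD against MCD 0 of 10 had an unadjusted edgeR p under 0.05 (1.2% of all genes were higher at that p and 2.04% lower), DESeq2 and limma voom called 0, and the 2 genes whose knockout libraries all stood above MCD were Ifng and Xcl1 (8.37% of all genes). There 7 were positive (47.9% of all genes), with a median of 0.10, against -0.03 over all genes. No Th1 gene had all libraries of the first group below those of the second in any comparison, where 9.66% to 14.8% of all genes did. Xcl1 and Eomes had no NCD read and passed the low-count filter only through deficient diet libraries. Against NCD they could only come out higher, and they are among the genes counted above. The members were chosen with earlier results known and CD73-MCD against NCD shares its libraries with both other comparisons, so these counts are descriptions.

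**Figure D4:**
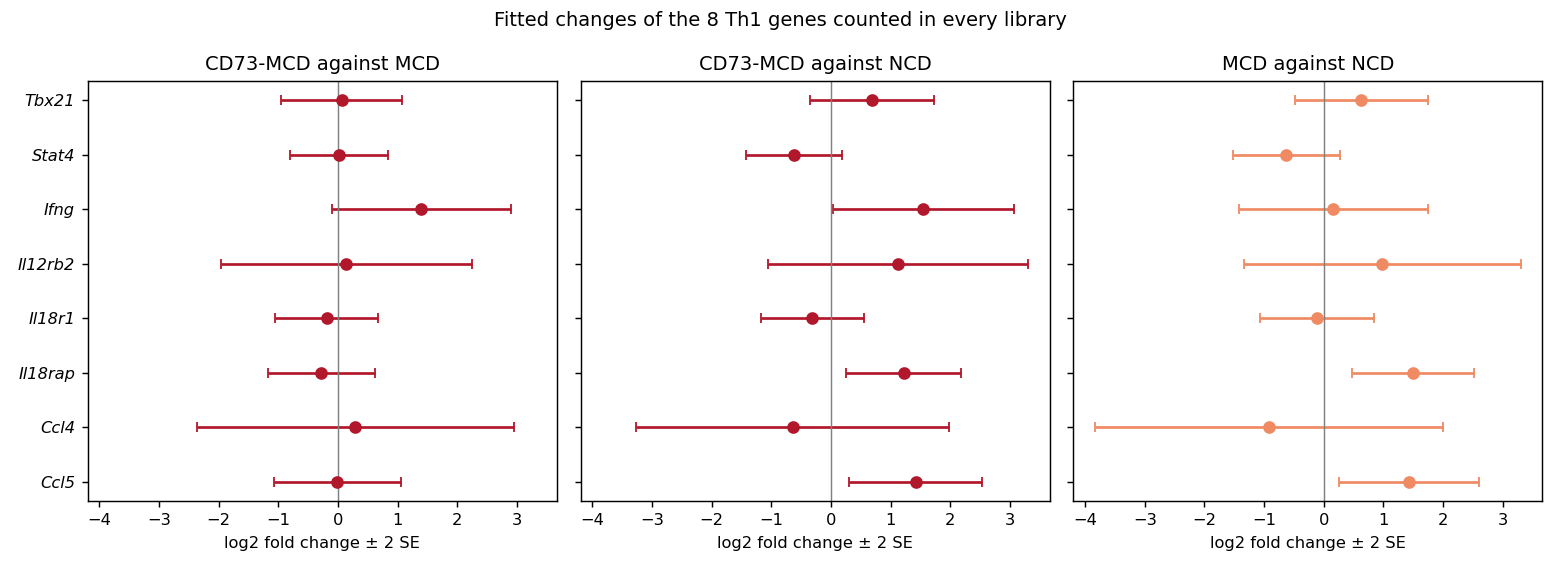
Fitted log2 fold changes (horizontal axis, points) with 2 standard errors either side (bars) of the 8 Th1 genes counted in every library, for CD73-MCD against MCD, CD73-MCD against NCD and MCD against NCD; values right of the line are higher in the group named first. Ifng has the largest value of the 8 in CD73-MCD against MCD (1.40), Il18rap and Ccl5 lie near 1.5 in MCD against NCD, and Ccl4 has the widest bars.

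The spread between libraries followed different lines among the 10 genes. The distance between 2 genes was taken as the root mean square difference of their log2 CPM, each centred on its own mean, over the 7 libraries. The closest pair was Stat4 and Il18r1 (distance 0.35), followed by Tbx21 and Il18rap (0.56) and Il18rap and Ccl5 (0.57), while Il18r1 and its neighbour Il18rap stood at 0.78. Among 9697 other tested genes averaging 5 CPM or more, those nearest to Tbx21 were Vps11 (0.11), Gart (0.14) and Rnf187 (0.18), and those nearest to Ifng were Sik1 (0.30), Gem (0.34) and Mgat4a (0.40). The salt-inducible kinase gene Sik1 had 82.6, 139 and 91.9 CPM in CD73-MCD, 74.0 and 28.6 CPM in MCD, and 45.7 and 10.9 CPM in NCD. Near to Ccl5 were Khk (0.22) and Txnrd1 (0.27). The median distance over all genes searched was 0.80 for Tbx21, 1.32 for Ifng and 0.98 for Ccl5. With 7 libraries many genes share such an order.

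The other genes of the pathway were read from 5 lists, of which none had a member past the edgeR threshold in any comparison. The lists overlap: Irf1 stands in 2 of them, and Xcr1, Ccr2, Ly6c2, Gzmb and Prf1 are also markers of other cells used above. The genes named are among the 2 with the smallest p of each list and comparison.

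Of the 15 genes of interleukin 12 and 18 signalling, all tested, 10 were higher in MCD than in NCD (median log2 fold change 0.10), and 8 were higher in CD73-MCD than in MCD (median 0.26). Il12a, the p35 subunit of interleukin 12 that is also a subunit of the Treg cytokine interleukin 35, had 6.31, 8.92 and 1.86 CPM in CD73-MCD, 1.49 and 1.42 CPM in MCD, and no read in NCD. All 5 deficient diet libraries thus counted Il12a and neither control diet library did. With no NCD read, Il12a passed the low-count filter only through deficient diet libraries. Against NCD it could only come out higher. Dendritic cells are a known source of Il12a. Their 9 markers summed to 636 to 1404 CPM in CD73-MCD, 586 to 1215 CPM in MCD and 188 to 332 CPM in NCD, where Clec9a was at 0. Of these markers 7 were higher in CD73-MCD than in NCD (median log2 fold change 2.53) and 8 were higher in MCD than in NCD (median 2.84), and their part in the differences of Il12a and Ccl5 between the diets was not tested. Set against a floor of 3 counts in the whole NCD group, Il12a was 82.5-fold higher in CD73-MCD than in NCD (edgeR adjusted p = 0.32). By the same floor it was 20.9-fold higher in MCD than in NCD (edgeR adjusted p = 0.704). These folds allow for counting error only. The 2 SE intervals of the log2 fold change against NCD were 5.78 to 14.03 for CD73-MCD and 4.04 to 11.84 for MCD. With no NCD read, these intervals depend on the small count that edgeR adds and set no lower limit on the fold. Myd88, the adaptor of the interleukin 18 receptor, had 91.6, 103.5 and 125 CPM in CD73-MCD and 141 and 269.5 CPM in MCD (log2 fold change -0.95, SE 0.35, edgeR adjusted p = 1.0). Il18bp, the soluble inhibitor of interleukin 18, had 5.78, 4.03 and 7.67 CPM in CD73-MCD, 7.76 and 33.1 CPM in MCD, and 5.01 and 5.37 CPM in NCD, so that only MCD replicate 2, the library with most macrophage markers, was high. Irak2, a kinase below MyD88, had log2 fold change 0.65 (SE 0.40) in CD73-MCD against NCD.

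Of the 16 partners and rivals of T-bet and Eomes, 15 were tested, Twist1 having no read. In MCD against NCD 9 were higher (median 0.29) and in CD73-MCD against MCD 7 (median -0.03). Hlx, a homeobox factor that acts with T-bet on Ifng, had 6.70, 11.6 and 2.67 CPM in CD73-MCD, 3.86 and 10.9 CPM in MCD, and no read in NCD. Like Il12a it was counted in all 5 deficient diet libraries and in neither control diet library. Hlx also passed the low-count filter only through deficient diet libraries and against NCD could only come out higher. The share of all tested genes with no NCD read was not counted. By the same floor, for counting error only, Hlx was 101.7-fold higher in CD73-MCD than in NCD (edgeR adjusted p = 0.283). It was 102.6-fold higher in MCD than in NCD (edgeR adjusted p = 0.548). The 2 SE intervals of the log2 fold change against NCD were 6.45 to 13.96 for CD73-MCD and 6.47 to 14.08 for MCD. These too depend on the small count that edgeR adds and set no lower limit on the fold. Tcf7, the TCF1 gene of naive and memory T cells, had 153 and 108 CPM in MCD and 173 and 420 CPM in NCD (log2 fold change -1.18, SE 0.46, edgeR adjusted p = 0.803). Ets1, a partner of T-bet, had 1234, 1520 and 1519 CPM in CD73-MCD and 2283 and 3159 CPM in NCD (log2 fold change -0.93, SE 0.26, edgeR adjusted p = 0.404). Irf1 differed by 1.17 on the log2 scale between CD73-MCD and MCD (SE 0.63, edgeR adjusted p = 1.0). Irf1, an interferon gamma target, had 386, 484 and 176 CPM in CD73-MCD and 194 and 116 CPM in MCD, so its groups overlapped while those of Ifng did not.

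Of the 22 genes of interferon gamma reception and response, 16 were lower in MCD than in NCD (median -0.67, against 0.04 over all genes), 14 were lower in CD73-MCD than in MCD (median -0.09), and 17 were lower in CD73-MCD than in NCD (median -0.38). In CD73-MCD against NCD 8 had an unadjusted edgeR p under 0.05 and were lower, where 4.25% of all genes were, and 10 had groups apart in that direction, where 12.8% of all genes did. Iigp1, an interferon-inducible GTPase, had 132, 106 and 122 CPM in CD73-MCD, 109 and 92.5 CPM in MCD, and 222 and 395 CPM in NCD. For Iigp1 the fitted log2 difference came to -1.61 (SE 0.36, edgeR adjusted p = 0.559) in MCD against NCD and -1.36 (SE 0.31, edgeR adjusted p = 0.32) in CD73-MCD against NCD. Igtp, another GTPase of this family, had -1.32 (SE 0.35, edgeR adjusted p = 0.383) in CD73-MCD against NCD. Ifngr2, the signalling chain of the interferon gamma receptor, went the other way, with 104, 111 and 69.6 CPM in CD73-MCD, 54.4 and 149 CPM in MCD, and 42.2 and 31.2 CPM in NCD (log2 fold change 1.47, SE 0.52, edgeR adjusted p = 0.779 in MCD against NCD). Irf1 and Irgm1, another interferon-inducible GTPase, had the smallest p in CD73-MCD against MCD, with log2 fold change -0.46 (SE 0.35) for Irgm1. Scaling to the pan T cell markers instead of all genes moved the median of the list to -0.08 in MCD against NCD and to 0.26 in CD73-MCD against NCD, where 13 of 22 were then higher. Relative to the median of all genes under that scaling it stayed lower, at -0.80 and -0.45. In CD73-MCD against MCD its sign turned to 0.03 with library totals.

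The 9 chemokine receptors and related chemokines, of which 8 were tested and Ackr2 was not, stood lower in the knockout, with 7 of 8 lower than in MCD (median -0.86, against -0.03 over all genes). That median lay between -1.0 and -0.72 under the other scalings. Ccr2, a receptor of monocytes and effector T cells, had 834, 712 and 699 CPM in CD73-MCD, 1256 and 1685.5 CPM in MCD, and 1310 and 958 CPM in NCD. The knockout libraries stood below all wild type libraries (log2 fold change -0.97, SE 0.26, edgeR adjusted p = 1.0 against MCD). Ccr3, a receptor for Ccl5, had 23.3, 24.2 and 32 CPM in CD73-MCD, 47.4 and 52.6 CPM in MCD, and 48.2 and 58.7 CPM in NCD. It was also below all wild type libraries in the knockout (log2 fold change -0.92, SE 0.33, edgeR adjusted p = 1.0 against MCD; -1.01, SE 0.33, edgeR adjusted p = 0.477 against NCD). All 9 monocyte and neutrophil markers, of which Ccr2 is one, were lower in CD73-MCD than in MCD, summing to 980 to 1237 CPM in CD73-MCD and 1361 to 2933 CPM in MCD. Cxcr6, the receptor of tissue-resident liver lymphocytes, had 137, 81.8 and 154 CPM in CD73-MCD, 209.5 and 62.9 CPM in MCD, and 37.3 and 23.9 CPM in NCD. Its deficient diet libraries all stood above the control diet ones (log2 fold change 2.15, SE 0.62, edgeR adjusted p = 0.712 in MCD against NCD; 2.02, SE 0.58, edgeR adjusted p = 0.416 in CD73-MCD against NCD). Xcr1, the receptor of Xcl1, had 7.33, 2.72 and 3.24 CPM in CD73-MCD, 12.9 and 16 CPM in MCD, and 7.13 and 2.88 CPM in NCD. Both MCD libraries stood above all others (log2 fold change -1.70, SE 0.82, edgeR adjusted p = 1.0 in CD73-MCD against MCD; 1.53, SE 0.93, edgeR adjusted p = 0.826 in MCD against NCD).

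Of the 14 other type 1 effector genes 10 were higher in MCD than in NCD (median 0.34) and 11 in CD73-MCD than in NCD (median 0.77), and 8 were higher in CD73-MCD than in MCD (median 0.10). Fasl, which encodes the death ligand of Fas, had 69.0, 110 and 120 CPM in CD73-MCD, 61.8 and 61.2 CPM in MCD, and 15.7 and 11 CPM in NCD. The 3 groups of Fasl did not overlap (log2 fold change 2.90, SE 0.40, edgeR adjusted p = 0.203 in CD73-MCD against NCD; 0.70, SE 0.36, edgeR adjusted p = 1.0 in CD73-MCD against MCD). Ly6c2, a surface marker of memory CD8 T cells and of inflammatory monocytes, had log2 fold changes of 2.96 (SE 0.70, edgeR adjusted p = 0.327) in CD73-MCD against NCD and 2.97 (SE 0.73, edgeR adjusted p = 0.677) in MCD against NCD. Nkg7, a granule protein of cytotoxic cells, had -0.33 (SE 0.31) in CD73-MCD against MCD.

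**Figure D5:**
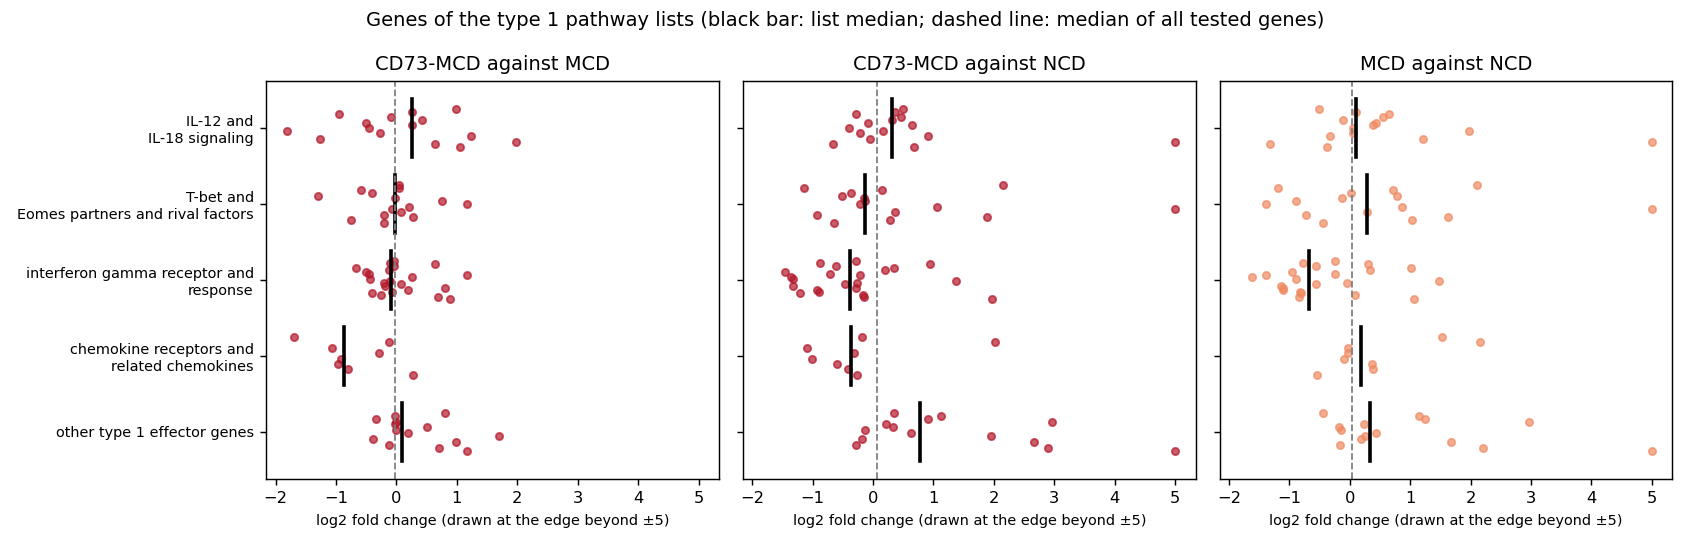
Fitted log2 fold changes (horizontal axes, 1 point per tested gene; points beyond 5 are drawn at the edge) of the genes of 5 type 1 pathway lists in CD73-MCD against MCD, CD73-MCD against NCD and MCD against NCD; black bars are list medians and the dashed line is the median of all tested genes. The interferon gamma response list has a median of -0.67 in MCD against NCD, and the chemokine receptor list one of -0.86 in CD73-MCD against MCD.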

How the data were processed

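CD4+CD25+ cells were sorted from liver. The authors deposited a table of raw counts per gene, read here for all 7 libraries by column title. Per the submitters' processing notes, HISAT2 2.1.0 was used with the GRCm38 build; which tool counted the reads, and with what strand setting, is not stated in the labels. Symbols, coordinates and exon lengths came from a GENCODE annotation of that build (53360 of 53465 IDs found).

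The main test was edgeR 4.0.16 (R 4.3.3) with TMM scaling, filterByExpr at a minimum count of 10, glmQLFit and glmQLFTest, with 1 coefficient per group in all 7 libraries and a Benjamini-Hochberg adjusted p of 0.05 over 14784 genes. SE is the log2 fold change divided by the root of F. The scripts were tested on simulated data. Replicates of a group differed by far more than counting noise (chi-square per degree of freedom 93.8 to 348.4). Totals were 19731501 to 24398738 reads. The effective library sizes, 19046680 to 23283999, put 3 counts at 0.129 to 0.158 CPM, for counting error only.

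The members and lists were chosen with earlier results of these data known. Named genes are the members, Nt5e, per pathway list and comparison the 2 genes with the smallest p, and the genes nearest to Tbx21, Ifng and Ccl5; a few genes that this rule names are not reported here. Ccl3, Tnf, Serbp1, the receptor ratio and the values of Sik1 were added after values were seen. Ifng, Stat4, Xcl1 and Eomes share 336, 1033, 98 and 118 exon bases with other annotated genes, so their reads are uncertain to that extent. The tests were repeated with other scalings and low-count filters, DESeq2 1.42.0, limma 3.58.1 with voom, the replicate number as a block, only the groups compared, and each library left out. A crossed block, list medians under other scalings, and removal of NCD replicate 1 together with MCD replicate 2 were added after seeing the data. Each of these 2 libraries had the most macrophage markers in its group. CD73-MCD replicate 1, which was kept, had more (12666 CPM summed) than NCD replicate 1 (11146 CPM).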

Additional observations from a re-analysis of the deposited data

How the results depend on the processing

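DESeq2 called 314 genes in MCD against NCD, 50 in CD73-MCD against MCD and 562 in CD73-MCD against NCD, and edgeR without a filter called 54, 1 and 140; every other setting run called 0 in all 3. Same-numbered libraries of different groups did not deviate together (correlations -0.102 to 0.03). With the replicate number as a block, as with the crossed pairing, 0 genes passed in each comparison. Scaling to pan T cell markers moved the median of all genes by 0.67 in MCD against NCD and 0.65 in CD73-MCD against NCD, and library totals moved it by 0.10 and 0.11 in CD73-MCD against MCD and NCD. Of 320 member values under settings other than 1 library left out, 22 changed sign and 1 passed the threshold (Xcl1, DESeq2). The cause was not tested in any case.

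The sign changes in MCD against NCD were Il18r1 with pan T scaling (0.39) and Ccl4 with voom (1.37). In CD73-MCD against MCD they were Tbx21 with pan T scaling (-0.06) and the crossed block (-0.04), Stat4 with the replicate block (-0.25) and the crossed block (-0.21), Il12rb2 with voom (-0.19), and Ccl5 with RLE (0.01), DESeq2 (0.01), library totals (0.15) and voom (0.16). In CD73-MCD against NCD they were Stat4 (0.08) and Il18r1 (0.29) with pan T scaling, and Ccl4 with voom (1.85), the replicate block (0.09) and the crossed block (1.08).

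Without NCD replicate 1 and MCD replicate 2 together, signs changed for Tbx21 (-0.28), Il18r1 (0.36) and Ccl4 (3.79) in MCD against NCD, Stat4 (-0.32) and Ccl5 (1.03) in CD73-MCD against MCD, and Ccl4 (5.08) in CD73-MCD against NCD. List medians moved to 0.87 (chemokine receptors) and 0.88 (other effectors) in MCD against NCD, to -0.31 (T-bet partners) in CD73-MCD against MCD, and to 0.65 (interleukin 12 and 18), -0.68 (interferon gamma), 0.38 (chemokine receptors) and 1.41 (other effectors) in CD73-MCD against NCD.

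With 1 library left out, 18 of 206 member values changed sign. The ranges of those members in CD73-MCD against MCD were -0.26 to 1.29 for Ccl4, -0.57 to 1.03 for Ccl5, -0.15 to 7.79 for Eomes, -0.71 to 0.55 for Il12rb2, -0.59 to 0.28 for Il18r1, -0.74 to 0.02 for Il18rap, -0.32 to 0.47 for Stat4 and -0.18 to 0.40 for Tbx21. They were -1.62 to 5.08 for Ccl4 in CD73-MCD against NCD, and -1.93 to 4.79 for Ccl4, -0.82 to 1.73 for Ifng and -0.57 to 0.23 for Il18r1 in MCD against NCD. List medians that moved ranged in CD73-MCD against MCD from -0.31 to 0.32 (T-bet partners), -0.11 to 0.14 (interferon gamma) and 0.10 to 0.56 (other effectors). In CD73-MCD against NCD they ranged from -0.02 to 0.65 (interleukin 12 and 18), -0.74 to 0.38 (chemokine receptors), -0.68 to -0.36 (interferon gamma) and 0.71 to 1.41 (other effectors). In MCD against NCD they ranged from 0.10 to 0.85 (interleukin 12 and 18), -0.45 to 0.29 (T-bet partners), 0.07 to 1.47 (chemokine receptors), -0.77 to -0.33 (interferon gamma) and 0.34 to 1.25 (other effectors).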
